A study of Danio rerio with 9 samples.

Results

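The genes described here encode proteins of the inner ear matrix and the otolith, or proteins linked to their formation: stm, otomp, oc90, tecta, otog, otop1, vcana, vcanb, has2 and has3. They were chosen by symbol, with earlier results of these data known. Each of the 10 symbols matched 1 gene ID among 32520 counted. All 10 passed the filter on low counts, together with 20365 other genes. Polyadenylated RNA came from whole embryos of the zebrafish (Danio rerio), 30 hours after fertilisation, in pools of 30 embryos and with 3 pools per genotype. Wild-type embryos (npc2+/+) had both normal copies of npc2, the gene of a soluble lysosomal protein that hands cholesterol to the membrane. Heterozygous embryos (Mnpc2+/m) came from mutant mothers and carried 1 mutant copy. Homozygous embryos (MZnpc2m/m) were maternal-zygotic mutants, with no normal copy in the mother or the embryo. The mutant genotypes were clutch mates that were told apart by their appearance, whereas wild-type embryos had other parents, taken from among the siblings of the mutants' parents. Parents and clutch therefore cannot be told apart from genotype in both comparisons with wild type. The homozygous and heterozygous embryos shared parents.

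The otolith is a calcium carbonate stone on a protein scaffold that rests on the hair cells of the ear and carries the pull of gravity and movement to them. In the embryo it starts as particles that settle on the first hair cells, are tethered there by a gel of glycoproteins, and grow as acidic matrix proteins and calcium carbonate are added. Hyaluronan, a long sugar polymer made at the cell surface, and proteoglycans that bind it fill the spaces of the developing ear, and they also fill the embryonic heart and other tissues.

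Total counts per library were 38564405 to 69360234, and the factors of the TMM (trimmed mean of M values) scaling ran from 0.981 to 1.02. NPC2 (ENSDARG00000090912) was at 256 to 278 CPM (counts scaled so that every library has the same total) in wild-type, 142 to 146 in heterozygous and 32.6 to 44.3 in homozygous libraries. Mitochondrially encoded genes held 2.91% to 3.15% of the counts in wild-type, 2.31% to 2.59% in heterozygous and 2.31% to 2.47% in homozygous libraries. Fold changes below are from edgeR's quasi-likelihood test on the counts as deposited, fitted over all genes. A gene was called at a Benjamini-Hochberg adjusted p under 0.05. Values after ± are SD over 3 pools for CPM and SE for log2 fold changes. The labels call the pools separate without naming clutches, and p-values therefore reflect only how these pools vary, which may be partly technical.

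In homozygous embryos most of the inner ear genes were below wild type, and oc90 and otop1 were above it. Of the 10 genes, 6 fell (tecta, vcanb, has3, stm, otomp and otog), 2 rose and 2 (vcana and has2) did not pass the test. Over all 20375 genes tested, 44.5% were called, 21.1% as lower and 23.5% as higher. For 9 of the 10 genes, all but has2, homozygous and wild-type libraries were fully separate, as they were for 53.9% of all genes. The median log2 change was -0.38 for the 10 genes and 0.02 for all genes. Their changes ran from -1.21 for tecta to 0.71 for oc90.

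**Figure D1:**
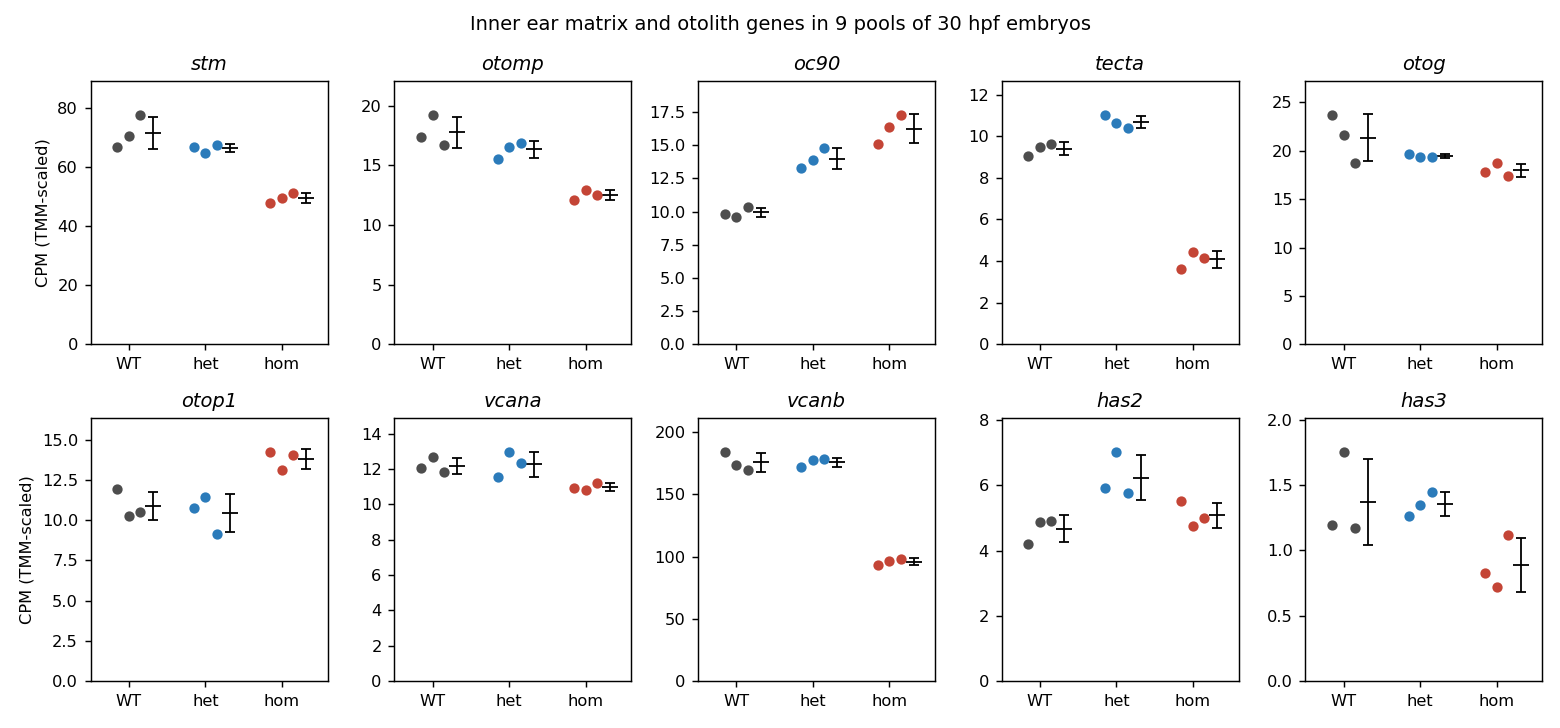
Level of each gene in CPM (TMM-scaled, axes from 0) in the 3 wild-type (WT), 3 heterozygous (het) and 3 homozygous (hom) pools. Points are pools and bars are mean ± SD. The homozygous points of tecta (3.62 to 4.44 CPM) and vcanb (93.2 to 98.3 CPM) lie far below both other genotypes, and oc90 climbs from wild type to homozygous.

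Among the mineral matrix proteins, stm and otomp fell by nearly the same amount, and oc90 rose. The gene stm encodes Starmaker, an acidic phosphoprotein that sets the crystal form of the zebrafish otolith. It stood at 66.9, 70.6 and 77.6 CPM in the wild-type pools, 66.8, 64.9 and 67.7 in the heterozygous pools and 48.0, 49.8 and 51.2 in the homozygous pools. All homozygous pools were below all others, and the heterozygous pools overlapped wild type at its lower end. Relative to wild type, stm in homozygous embryos had a log2 change of -0.53 ± 0.06 (edgeR adjusted p = 7.01e-07). Otolith matrix protein, encoded by otomp, is a transferrin-like protein needed for otolith growth in zebrafish. Its level was 17.4, 19.2 and 16.7 CPM in wild-type, 15.6, 16.5 and 16.9 in heterozygous and 12.1, 12.9 and 12.5 in homozygous pools. The homozygous pools were again the lowest, with no overlap, and otomp changed by -0.51 ± 0.08 (adjusted p = 3.24e-05).

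Otoconin-90, the product of oc90, is a phospholipase-like protein that is the main protein of mammalian otoconia and is needed early in otolith formation in zebrafish. The gene was at 9.84, 9.62 and 10.3 CPM in wild-type, 13.3, 13.9 and 14.8 in heterozygous and 15.1, 16.4 and 17.2 in homozygous pools. The 3 genotypes formed separate steps, each without overlap with the next. It rose by 0.71 ± 0.08 in homozygous (1.63-fold, adjusted p = 1.41e-06) and by 0.49 ± 0.08 in heterozygous embryos (1.41-fold, adjusted p = 1.76e-04), both against the same wild-type pools. The step from heterozygous to homozygous siblings was 0.21 ± 0.08 (adjusted p = 0.0371). That call was lost without heterozygous replicate 1 or 2 or homozygous replicate 2 or 3 (adjusted p = 0.145, 0.0948, 0.0863 and 0.111) and with no filter on low counts (0.0553).

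The glycoproteins that hold the otolith in place differed in size of change. Alpha-tectorin, encoded by tecta, forms the tectorial membrane of the mammalian cochlea and helps tether the otolith in zebrafish. Its level was 9.06, 9.49 and 9.64 CPM in wild-type pools, 11.0, 10.6 and 10.4 in heterozygous pools and 3.62, 4.44 and 4.16 in homozygous pools. The heterozygous pools were the highest and the homozygous pools under 5 CPM, with no overlap between any of the genotypes. The fall was 2.31-fold against wild type (log2 -1.21 ± 0.10, adjusted p = 2.04e-08) and 2.62-fold against heterozygous siblings (log2 -1.39 ± 0.10, adjusted p = 4.45e-09). Of all genes tested, 2.33% were as low or lower against wild type and 0.928% against heterozygous embryos. The excess of tecta in heterozygous over wild-type embryos was 0.18 ± 0.09 and did not pass (adjusted p = 0.146, 95% interval -0.01 to 0.37).

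Otogelin, encoded by otog, is a large secreted glycoprotein that also tethers the otolith in zebrafish. It was at 23.7, 21.7 and 18.8 CPM in wild-type, 19.7, 19.3 and 19.4 in heterozygous and 17.8, 18.8 and 17.4 in homozygous pools. The lowest wild-type pool and the highest homozygous pool were almost level, and the wild-type pools were spread more widely than the others (SD 2.46 CPM against 0.208 and 0.706). Homozygous embryos were at -0.25 ± 0.08 against wild type (adjusted p = 0.0156), and that call did not survive leaving out wild-type replicate 1 (-0.17, adjusted p = 0.0933) or 2 (-0.24, adjusted p = 0.0518). Against heterozygous siblings the change was -0.12 ± 0.08 and did not pass (adjusted p = 0.261, 95% interval -0.28 to 0.05).

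Otopetrin 1, the product of otop1, is a proton channel without which zebrafish and mice form no normal otoliths or otoconia. The gene was at 11.9, 10.2 and 10.5 CPM in wild-type, 10.7, 11.4 and 9.16 in heterozygous and 14.2, 13.1 and 14.1 in homozygous pools. The homozygous pools were above all 6 others, while wild-type and heterozygous pools overlapped. It rose by 0.35 ± 0.09 against wild type (1.27-fold, adjusted p = 0.00596) and by 0.40 ± 0.09 against heterozygous siblings (1.32-fold, adjusted p = 0.00216).

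**Figure D2:**
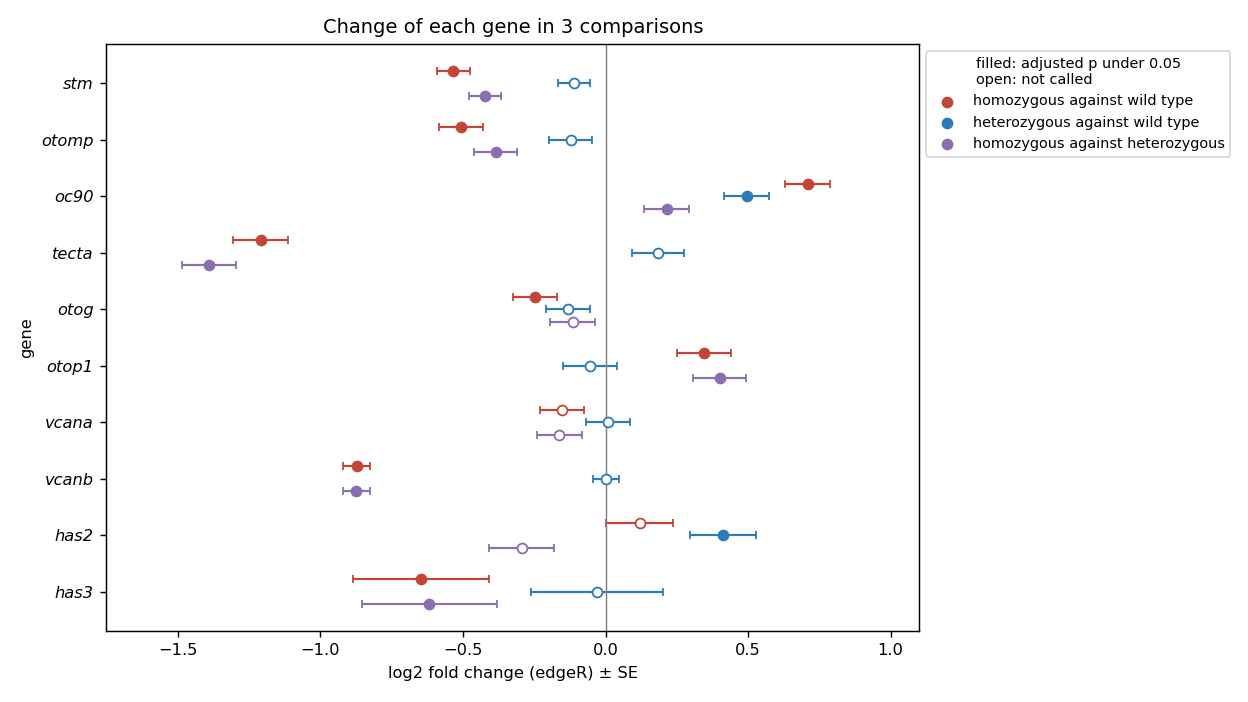
Log2 fold change (edgeR) ± SE of each gene in 3 comparisons, with filled points for an adjusted p under 0.05 and open points for genes not called. For tecta, vcanb, stm and otomp both comparisons of homozygous embryos lie below 0 and the heterozygous comparison is open, whereas oc90 is filled above 0 in all 3.

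Of the versican genes, vcanb fell and vcana did not pass. Versicans are large chondroitin sulphate proteoglycans that bind hyaluronan, and zebrafish have a pair of genes for them. The level of vcanb was 184, 173 and 170.0 CPM in wild-type, 172, 178 and 178 in heterozygous and 93.2, 96.4 and 98.3 in homozygous pools. The wild-type and heterozygous pools were mixed, and the homozygous pools stood well apart at 54.6% of the wild-type mean. The log2 change was -0.87 ± 0.05 both against wild type (adjusted p = 1.09e-10) and against heterozygous siblings (adjusted p = 1.39e-10). These comparisons share the homozygous pools. For vcana, the pools held 12.1, 12.7 and 11.8 CPM in wild-type, 11.5, 13.0 and 12.3 in heterozygous and 10.9, 10.8 and 11.2 in homozygous embryos. The homozygous pools were the lowest by a small margin. Homozygous embryos had a vcana change of -0.15 ± 0.08 relative to wild type (adjusted p = 0.124, 95% interval -0.32 to 0.01), so the lower bound of the interval is smaller in size than the fall of vcanb.

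The hyaluronan synthase genes had few counts, and several of their calls depended on single libraries. The enzyme made from has2 supplies hyaluronan to the heart cushions and other embryonic tissues, and that made from has3 drives the growth of the semicircular canal projections of the zebrafish ear. Levels of has2 were 4.20, 4.89 and 4.92 CPM in wild-type, 5.93, 7.02 and 5.75 in heterozygous and 5.51, 4.74 and 5.0 in homozygous pools. The heterozygous pools were the highest, and wild-type and homozygous pools overlapped. It rose in heterozygous against wild-type embryos by 0.41 ± 0.12 (1.33-fold, adjusted p = 0.0117), and the call was lost when heterozygous replicate 2 (adjusted p = 0.0778) or wild-type replicate 1 (0.0538) was left out. In homozygous embryos has2 was at 0.12 ± 0.12 against wild type (adjusted p = 0.432, 95% interval -0.13 to 0.37) and at -0.29 ± 0.11 against heterozygous siblings. The latter had an adjusted p of 0.0502, just above the threshold, and passed in 8 of 18 alternative settings (adjusted p from 0.0385 to 0.241 over all 18).

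The level of has3 was 1.19, 1.75 and 1.18 CPM in wild-type, 1.27, 1.35 and 1.45 in heterozygous and 0.828, 0.722 and 1.12 in homozygous pools, from 46 to 112 counts a library. One wild-type pool was high and 1 homozygous pool came close to the lowest of the wild-type pools. Relative to wild type, has3 fell in homozygous embryos by 0.65 ± 0.24 on the log2 scale (adjusted p = 0.0351). The call was lost when homozygous replicate 1, homozygous replicate 2 or wild-type replicate 2 was left out (adjusted p = 0.0965, 0.130 and 0.212), with only both genotypes in the fit (0.0522) and with a replicate block (0.0502). Against heterozygous siblings it was -0.62 ± 0.24 (adjusted p = 0.0466), lost in 8 of 18 alternative settings (up to 0.174).

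Embryos were sequenced whole, so fewer cells of a type and less RNA per cell cannot be told apart, and for versican and hyaluronan synthase genes the ear is only one of the tissues that contribute. A ratio of counts within a library does not depend on scaling, and gene length cancels when genotypes are compared. There were 0.133 to 0.147 oc90 counts for each stm count in wild-type libraries, 0.198 to 0.219 in heterozygous and 0.315 to 0.337 in homozygous libraries. The ratio of oc90 to tecta was 1.01 to 1.09 in wild-type, 1.21 to 1.43 in heterozygous and 3.68 to 4.17 in homozygous libraries. Both ratios were lowest in wild type and highest in homozygous libraries, without overlap. The ratio of vcanb to vcana was 13.6 to 15.3 in wild-type, 13.7 to 14.9 in heterozygous and 8.53 to 8.92 in homozygous libraries. In contrast, stm to otomp was 3.68 to 4.65 in wild-type, 3.92 to 4.29 in heterozygous and 3.84 to 4.10 in homozygous libraries, ranges that overlapped. The ratio of otog to tecta was 1.95 to 2.61, 1.79 to 1.87 and 4.18 to 4.90 in wild-type, heterozygous and homozygous libraries. The genes of these ratios were paired after counts had been seen, so the ratios are given without a test. They restate, without dependence on scaling, the unequal changes of oc90 and tecta and of vcanb and vcana given above.

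**Figure D3:**
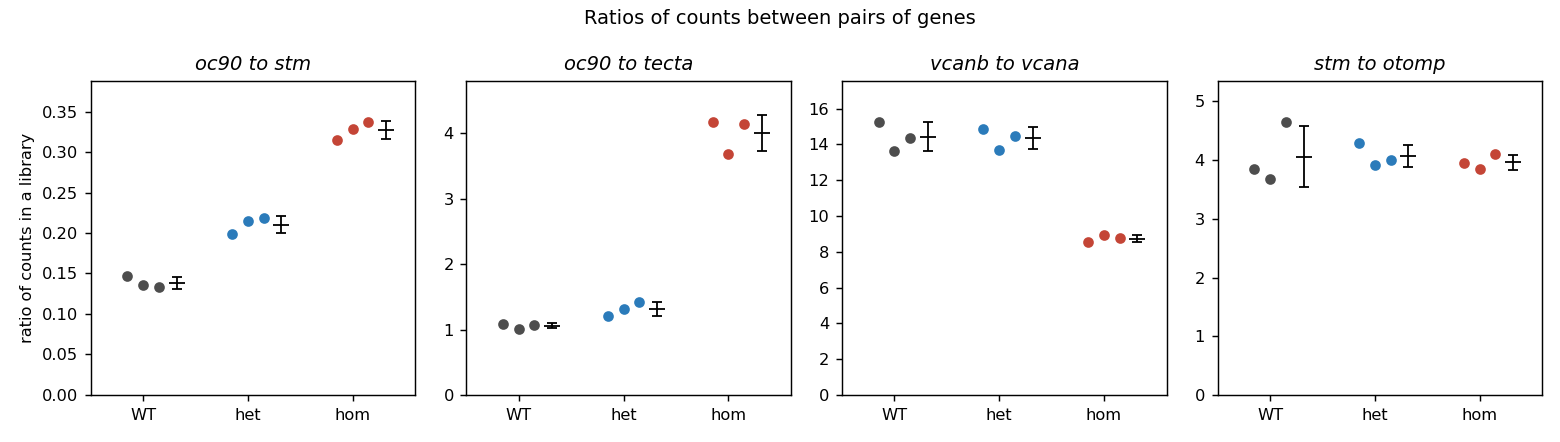
Ratio of raw counts between pairs of genes in each library (axes from 0), with bars for mean ± SD over 3 libraries per genotype. The oc90 to stm ratio steps up from 0.133 to 0.147 in wild type (WT) to 0.315 to 0.337 in homozygous (hom) libraries, the vcanb to vcana ratio drops to 8.53 to 8.92, and stm to otomp stays within overlapping ranges.

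In heterozygous embryos the share of these genes called against wild type was near that of all genes. Of the 10, oc90 and has2 rose, 0 fell and 8 did not pass, where 29.8% of all genes were called, 15.5% as higher and 14.4% as lower. Heterozygous and wild-type libraries were fully separate for 3 of the 10 (oc90, has2 and tecta, all higher in heterozygous embryos), as for 42.7% of all genes. The heterozygous mean of vcanb was 100.1% of wild type (log2 0.00 ± 0.05, 95% interval -0.10 to 0.10). For stm, otomp and otog it was 92.6%, 92.0% and 91.1%, and none of these differences passed (adjusted p = 0.152, 0.239 and 0.222). The otog value depended on single wild-type libraries: its log2 change of -0.13 went to -0.06 without replicate 1 (adjusted p = 0.657) and to -0.22 without replicate 3, where it passed (adjusted p = 0.0292). Against heterozygous siblings, the homozygous embryos had 5 genes lower (tecta, vcanb, has3, stm and otomp), 2 higher (otop1 and oc90) and 3 not called. Over all genes 39.8% were called in that comparison, 19.4% as lower and 20.4% as higher. All 10 genes had non-overlapping libraries there, as had 51.2% of all genes. The fall between siblings was 0.42 ± 0.06 on the log2 scale for stm (adjusted p = 1.25e-05) and 0.38 ± 0.08 for otomp (adjusted p = 5.35e-04).

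The position of heterozygous embryos was tested against the midpoint of the wild-type and homozygous log2 levels. The midpoint includes the wild-type pools, so here too parents and clutch cannot be told apart from genotype. Heterozygous embryos were above it for 4 genes, below it for 1 and not distinguished from it for 5, while 33.7% of all genes were called in this test, 16.7% above and 17% below. Both genes with large falls were on the wild-type side, with tecta 0.79 ± 0.08 (adjusted p = 1.10e-06) and vcanb 0.44 ± 0.04 (adjusted p = 3.06e-07) above the midpoint. Smaller deviations were called for has2 (0.35 ± 0.10, adjusted p = 0.00987), stm (0.16 ± 0.05, adjusted p = 0.0195) and otop1 (-0.23 ± 0.08, adjusted p = 0.0388). The call of has2 was lost without heterozygous replicate 2 (adjusted p = 0.0985). The stm call was lost without heterozygous replicate 1 or 3 or homozygous replicate 1 (0.0618, 0.0765 and 0.0597), and the otop1 call without any of these or wild-type replicate 1 (0.0727, 0.208, 0.0724 and 0.0798). For oc90 the deviation was 0.14 ± 0.07 (adjusted p = 0.127, 95% interval -0.00 to 0.28), and for otomp it was 0.13 ± 0.06 (adjusted p = 0.133).

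**Figure D4:**
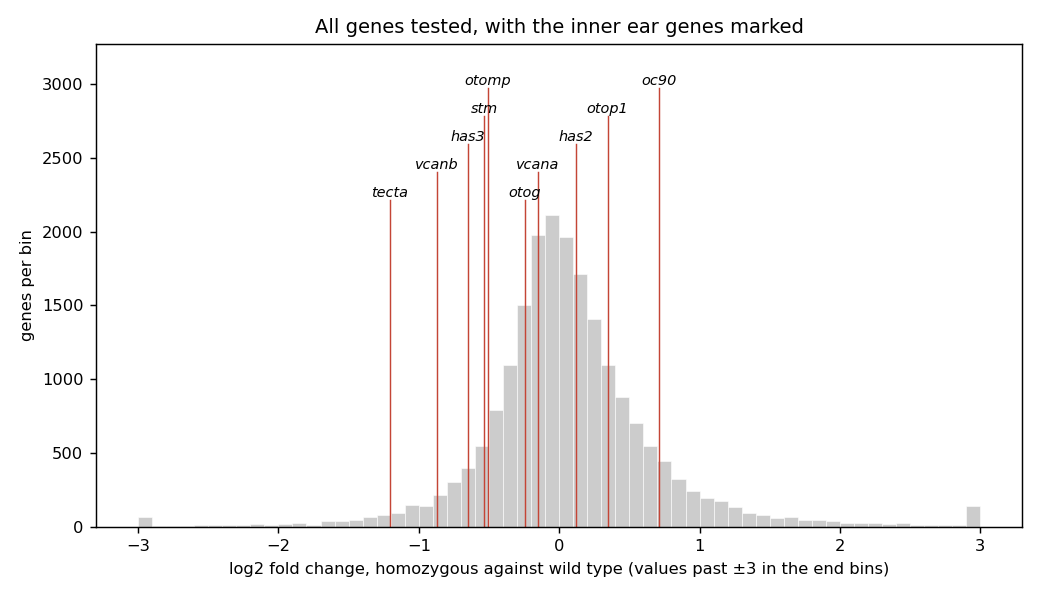
Histogram of log2 fold changes, homozygous against wild type, for the 20375 genes tested (bins of the x axis in log2 units, y axis in genes), with red lines at the 10 inner ear genes. The line of tecta at -1.21 is in the lower tail, with 2.33% of genes as low or lower, and that of oc90 at 0.71 is on the upper flank, with 10.8% of genes as high or higher.

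Other genes of the otolith and tectorial matrix were followed as a list of 12 symbols (13 IDs, of which 9 could be tested). This list and those below were chosen with earlier results of these data known. In homozygous against wild-type embryos 1 rose, 5 fell and 3 did not pass, with a median log2 change of -0.27. Over all genes 23.5% were called as higher and 21.1% as lower. TECTB, which encodes the tectorin partner of alpha-tectorin, went from 3.08 ± 0.198 CPM in wild-type to 1.79 ± 0.135 in heterozygous and 1.03 ± 0.231 in homozygous embryos. Its log2 changes were -1.59 ± 0.19 (adjusted p = 2.20e-06) in homozygous and -0.78 ± 0.18 (adjusted p = 0.00296) in heterozygous embryos against wild type, where tecta was at 0.18 ± 0.09 and not called. HSP90B1, a chaperone of the endoplasmic reticulum, fell in homozygous embryos by 0.97 ± 0.09 and slc12a2, a chloride cotransporter of the ear's secretory epithelium, by 0.27 ± 0.05 on the log2 scale. HSP90B1 was also lower in heterozygous than in wild-type embryos (-0.84 ± 0.09, adjusted p = 2.35e-05). In that comparison slc12a2 was higher (0.17 ± 0.05, adjusted p = 0.0106), opposite to its homozygous change. Between homozygous and heterozygous siblings HSP90B1 was not called (-0.14 ± 0.09, adjusted p = 0.244). ATP2B1, a calcium pump of the plasma membrane, rose by 0.31 ± 0.04. In heterozygous against wild-type embryos 1 of the 9 rose, 2 fell and 6 did not pass, beside 15.5% of all genes higher and 14.4% lower.

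Of 22 tested IDs of hair and supporting cell genes, 5 rose, 1 fell and 16 did not pass in homozygous against wild-type embryos (median log2 change 0.11), beside 23.5% of all genes higher and 21.1% lower. The transduction genes PCDH15 (ENSDARG00000098257) and tmie rose by 0.40 ± 0.09 and 0.52 ± 0.15, and the motor gene MYO6 (ENSDARG00000042141) by 0.32 ± 0.07. The motor gene MYO7A (ENSDARG00000099871) fell by 0.22 ± 0.07. The other ID named PCDH15 was at -0.21 ± 0.15 and the other named MYO7A at 0.82 ± 0.49, both not called. The other MYO6 ID rose by 0.14 ± 0.05. Between homozygous and heterozygous siblings, PCDH15 (ENSDARG00000098257, 0.11 ± 0.08, adjusted p = 0.325) and MYO6 (ENSDARG00000042141, 0.16 ± 0.07, adjusted p = 0.0929) were not called. This PCDH15 ID was also higher in heterozygous than in wild-type embryos (0.29 ± 0.09, adjusted p = 0.0180). Between siblings tmie (0.58 ± 0.15), the other MYO6 ID (0.20 ± 0.05) and MYO7A (ENSDARG00000099871, -0.28 ± 0.07) were called, each in the same direction. USH1C, named here because it is far from the rest in the plot of the lists, had 0.0612 ± 0.106 CPM in wild-type but 1.46 ± 0.851 CPM in homozygous embryos. The summed level of the list was 161 to 171 CPM in wild-type, 157 to 163 in heterozygous and 169.9 to 178.5 in homozygous libraries. Its largest part was MYO6 (ENSDARG00000044016), at 71.1 ± 3.17 CPM in wild-type, 68.3 ± 1.64 in heterozygous and 78.5 ± 3.63 in homozygous embryos. The sum therefore follows that ID closely.

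Transcription factor genes of the otic placode and vesicle had 3 of 19 tested IDs higher, 11 lower and 5 not called in homozygous against wild-type embryos, with a median log2 change of -0.26. The shares over all genes were 23.5% higher and 21.1% lower. PAX2 (ENSDARG00000028148), an early marker of the otic placode, rose by 0.41 ± 0.06, while EYA1, needed for ear sensory cells, fell by 0.39 ± 0.05. SOX9 (ENSDARG00000043923) fell by 0.91 ± 0.07 and PAX5, which acts in the anterior vesicle, by 0.96 ± 0.15. Their summed level was 631 to 701 CPM in wild-type, 596 to 613 in heterozygous and 573 to 575 in homozygous libraries. Both SOX9 IDs are part of that sum. From wild-type to homozygous embryos they went from 105 ± 12.4 to 55.8 ± 1.29 CPM (ENSDARG00000043923) and from 62.0 ± 7.54 to 48.1 ± 0.875 CPM (ENSDARG00000003293). A sum without them was not taken. Most factors of this list also act in the brain, kidney, neural crest or pharyngeal arches. EYA1 was also lower in heterozygous than in wild-type embryos (-0.25 ± 0.05, adjusted p = 9.82e-04). PAX2 (ENSDARG00000028148) was lower there as well (-0.23 ± 0.06, adjusted p = 0.00836), opposite to its homozygous change. Between siblings this PAX2 ID was at 0.63 ± 0.06 (adjusted p = 2.20e-07). Of 7 IDs of the statoacoustic ganglion list, the neurons that serve the ear, 3 rose, 1 fell and 3 did not pass. NEUROD1, NEUROD4 and NTRK3 (ENSDARG00000086214) rose by 0.26 ± 0.05, 0.39 ± 0.09 and 0.50 ± 0.12. The proneural gene neurog1 fell by 0.67 ± 0.06 against wild type. Its fall was larger in heterozygous embryos (-1.10 ± 0.06 against wild type, adjusted p = 1.16e-09). NEUROD1 and NEUROD4, which rose in homozygous embryos, were lower in heterozygous than in wild-type embryos. Their changes there were -0.14 ± 0.05 (adjusted p = 0.0445) and -0.38 ± 0.09 (adjusted p = 0.00673). Between siblings, neurog1 was therefore higher in the homozygous embryos (0.43 ± 0.06, adjusted p = 1.54e-05). In that sibling comparison 5 of the 7 IDs were higher in homozygous embryos, 0 were lower and 2 were not called. Over all genes 20.4% were called as higher and 19.4% as lower between siblings.

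Further genes of the hyaluronan and chondroitin matrix moved in both directions. Of 24 tested IDs, 6 rose, 7 fell and 11 did not pass in homozygous against wild-type embryos (median log2 change -0.16). Among all genes 23.5% were called as higher and 21.1% as lower. The proteoglycan core gene acana fell by 1.63 ± 0.10, from 18.7 ± 1.99 to 6.07 ± 0.577 CPM, and CHPF (ENSDARG00000078037), which lengthens chondroitin chains, fell by 1.14 ± 0.10. The other CHPF ID was at 0.07 ± 0.07 and not called. NCAN, a neural relative of versican, rose by 0.67 ± 0.08, and HYAL2 (ENSDARG00000062997), of the hyaluronidase family, by 0.38 ± 0.06. This HYAL2 ID was also higher in heterozygous than in wild-type embryos (0.43 ± 0.06, adjusted p = 7.05e-05). Between homozygous and heterozygous siblings it was not called (-0.05 ± 0.06, adjusted p = 0.586). In heterozygous against wild-type embryos acana was at -0.81 ± 0.10 (adjusted p = 8.89e-06) and CHPF (ENSDARG00000078037) at -0.39 ± 0.10 (adjusted p = 0.00633). Between siblings these were at -0.82 ± 0.10 (adjusted p = 4.38e-06) and -0.75 ± 0.10 (adjusted p = 1.41e-05). The link protein genes, whose products clamp versican to hyaluronan, lie next to the versican genes in RefSeq's GRCz12tu annotation, hapln1a by vcana and hapln1b by vcanb. The homozygous level of hapln1a was lower, going from 486 ± 10.01 to 413 ± 12.02 CPM (log2 -0.23 ± 0.05, adjusted p = 8.52e-04). The ID that carries the symbol HAPLN1 rose from 5.42 ± 0.618 to 8.43 ± 1.04 CPM (0.63 ± 0.11, adjusted p = 1.81e-04).

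**Figure D5:**
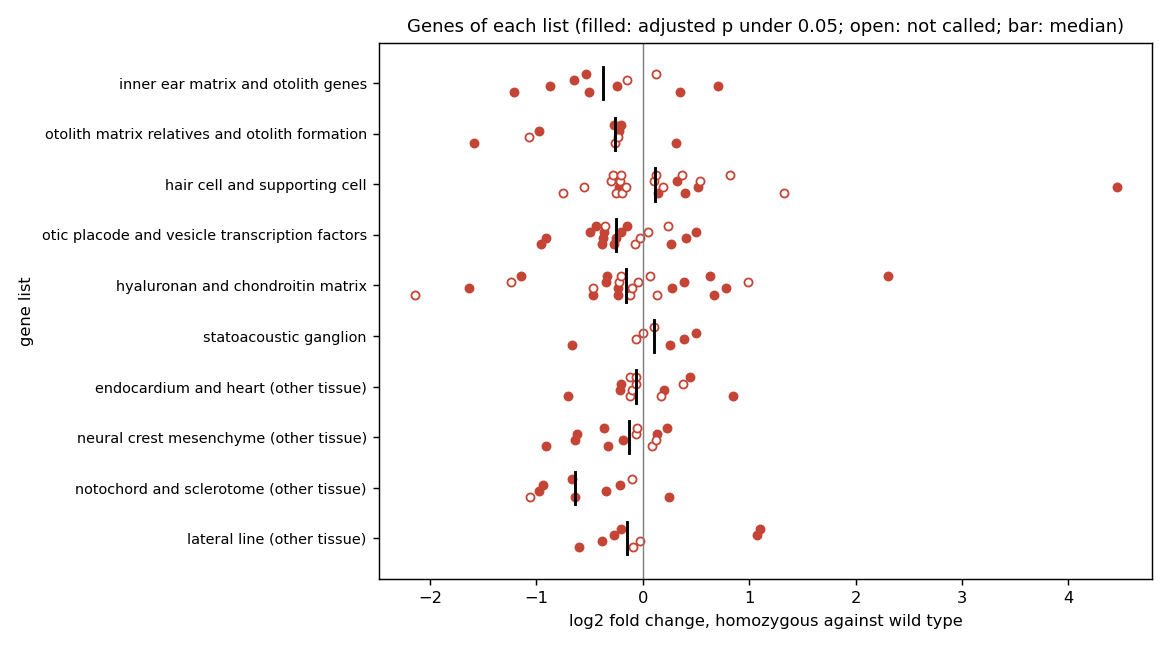
Log2 fold change, homozygous against wild type, of every tested gene in each list, with filled points for an adjusted p under 0.05, open points for genes not called and a black bar at the median. The median of the inner ear matrix and otolith genes is -0.38, that of the hair cell list 0.11 and that of the notochord and sclerotome list -0.64. USH1C is the point far to the right.

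Tissues outside the ear that could contribute the same transcripts were described by lists of their own. Counts are for homozygous against wild-type embryos, where 23.5% of all genes were called as higher and 21.1% as lower. Of the endocardium and heart genes, 3 rose, 3 fell and 7 of 13 did not pass (median log2 change -0.07), with summed levels of 349 to 360.0 CPM in wild-type and 333 to 350.2 in homozygous libraries. Neural crest mesenchyme genes had 2 higher, 6 lower and 4 not called of 12 (median -0.13, summed 606 to 631 and 530.3 to 549.8 CPM), with FOXC1 at -0.62 ± 0.05 and foxc1b at -0.64 ± 0.06. Those that rose were TFAP2A (0.23 ± 0.05) and PRRX1 (ENSDARG00000033971, 0.14 ± 0.05). The other PRRX1 ID fell (-0.32 ± 0.07). Without both SOX9 IDs, which the otic list also holds, the summed crest level was 440.2 to 460.3 CPM in wild-type and 427 to 447 in homozygous libraries, ranges that overlapped. Notochord and sclerotome genes had 1 higher, 6 lower and 2 not called of 9 (median -0.64, summed 999.7 to 1089 and 898 to 931 CPM). Among them PAX9 and PAX1 (ENSDARG00000008203), of the sclerotome, were at -0.98 ± 0.10 and -0.93 ± 0.12. Of 8 lateral line IDs, 2 rose, 4 fell and 2 did not pass (median -0.15, summed 271 to 277 and 298 to 308 CPM), with cldnb up by 1.07 ± 0.05 and CXCR4 (ENSDARG00000057633), EYA1 and ACKR3 at -0.60 ± 0.08, -0.39 ± 0.05 and -0.27 ± 0.06. The other CXCR4 ID was not called (-0.09 ± 0.07). ACKR3 was also lower in heterozygous than in wild-type embryos (-0.25 ± 0.06, adjusted p = 0.00242) and was not called between siblings (-0.02 ± 0.06, adjusted p = 0.831). Between siblings EYA1 was at -0.13 ± 0.05 (adjusted p = 0.0404), CXCR4 (ENSDARG00000057633) at -0.40 ± 0.08 and cldnb at 0.96 ± 0.05. Without cldnb the summed lateral line level was 215 to 222 CPM in wild-type, 179 to 188 in heterozygous and 182 to 186 in homozygous libraries. The homozygous range thus lay within the heterozygous one. EYA1 and PROX1 of this list are also in the otic list. In homozygous against wild-type embryos the called genes of the notochord and sclerotome list and of the crest list were mainly lower. In each list 6 were lower, with 1 and 2 higher. The gene that rose against wild type in the notochord and sclerotome list was COL9A1 (0.25 ± 0.07). It was also higher in heterozygous than in wild-type embryos (0.29 ± 0.07, adjusted p = 0.00498) and was not called between siblings (-0.05 ± 0.07, adjusted p = 0.650). Between siblings the notochord and sclerotome list had 1 higher, 4 lower and 4 not called. The crest list had 4, 3 and 5, the heart list 5, 2 and 6 and the lateral line list 3, 2 and 3. Over all genes 20.4% were called as higher and 19.4% as lower there. In heterozygous against wild-type embryos these lists, in the same order, had 1, 0, 1 and 0 higher and 3, 5, 3 and 5 lower. The shares over all genes were 15.5% and 14.4%. The part of these tissues in the results was not tested. At least 1 listed ID had 0 counts in every library for the hair cell, otic, crest, notochord and lateral line lists (1, 3, 1, 1 and 2 IDs).

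The genes tecta, has3, otog and stm share ground with a neighbour in the GRCz12tu annotation, which matters because whether counting used the strand is not stated in the labels or the processing notes. The span of tecta overlaps cntrl, a centriole gene. In homozygous against wild-type embryos cntrl rose (log2 0.27 ± 0.05, from 37.0 ± 0.517 to 44.7 ± 1.26 CPM) while tecta fell. It was also higher in heterozygous than in wild-type embryos (0.17 ± 0.05, adjusted p = 0.0210). Between siblings cntrl was not called (0.10 ± 0.05, adjusted p = 0.116). The span of has3 overlaps CHTF8, which fell with it against wild type (-0.34 ± 0.10, from 10.01 ± 1.35 to 7.92 ± 0.389 CPM). CHTF8 was not called between siblings (-0.15 ± 0.10, adjusted p = 0.242). For otog the overlap is with esyt2b. In homozygous against wild-type embryos the IDs named ESYT2 were at 0.53 ± 0.06 (ENSDARG00000030824) and -0.02 ± 0.08 (ENSDARG00000078964). The span of stm overlaps a long noncoding RNA, for which no value was taken. Whether shared reads contributed to tecta, has3, otog or stm was not tested.

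Genes with the most similar profile over the 9 libraries were found by the root mean square (RMS) difference between log2 CPM values, each centred on its own mean, among 10667 candidates. The closest to tecta were sox19b, a neural progenitor factor (0.0952 log2 units), and RNF145 (0.104). The closest to vcanb were tgm1l1 (0.0431) and FMOD, a matrix proteoglycan (0.0476). YRDC (0.0370) and h2ax (0.0401) were closest to oc90, and PKP3 (0.0406) and synpo2b (0.0431) to stm. For otomp they were NWD2 (0.0479) and rtn2a (0.0604), for otop1 bloc1s4 (0.0545) and SLC7A8 (0.0724), and for otog UBR3 (0.0363) and PPIP5K1 (0.0398). RECK (0.0374) and EHMT2 (0.0386) were closest to vcana, PGM2L1 (0.0743) and SLC25A33 (0.0781) to has2, and stab1 (0.159) and CLDN5 (0.160) to has3. The differences for tecta and has3 were the widest of the 10 genes, and each profile rests mainly on the same 3 genotype means.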

How the data were processed

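Per the labels, polyadenylated RNA was sequenced from 9 pools of 30 embryos, 3 per genotype. Per the submitters' processing notes, the tools were featureCounts 1.6.3, HISAT2 2.1.0 and cutadapt 1.18 and the build GRCz11 (danRer11). The authors deposited whole-number counts per gene, not normalized. Neither the annotation release nor the strand setting is given in the sources used here. Low counts (1 to 19) were even in 96.3% to 97.5% of cases, so most fragments may hold 2 counts.

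Counts were tested with edgeR 4.0.16 in R 4.3.3 (quasi-likelihood F test, robust, TMM, filter by expression, all 9 libraries in 1 fit), with Benjamini-Hochberg adjustment over 20375 genes. The procedure was tested on simulated data with far fewer genes changed than were called here. That test therefore does not check the scaling or the error rate for data with so many calls. SE was derived from the log2 fold change and F (its size over the root of F). CPM values are TMM-scaled. Symbols came from a names table (29201 of 32520 IDs). The 10 genes are written in lower case, others as that table spells them. For a listed symbol absent from it, a final a or b was dropped and all IDs of the shorter symbol were taken. Such IDs are not assigned to the a or b copy. Alternatives were DESeq2 1.42.0, limma-voom (limma 3.58.1), RLE and upper-quartile scaling, other filters, fewer groups, a replicate block, counts divided by 2, and leaving out each library.

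The 10 genes and all lists were chosen with earlier results of these data known. Named from a list were up to 4 called genes with the lowest adjusted p in homozygous against wild-type embryos, with exceptions. None was named from the endocardium and heart list, and SHH and epyc of the notochord and sclerotome list were left out. Named in addition were TFAP2A, PRRX1, COL9A1, PROX1, USH1C, the link protein genes and other IDs of a named symbol. No 2 libraries of a genotype were close enough to be 1 library deposited again (chi-square over its degrees of freedom 2.51 to 6.83, on halved counts).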

Additional observations from a re-analysis of the deposited data

How the results depend on the processing

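Each log2 change of the 10 genes in 4 comparisons was recomputed under 17 or 18 alternatives. Of 710 recomputed values, 648 kept direction and call, 30 lost the call, 9 gained it and 23 changed sign. The falls of tecta, vcanb, stm and otomp in homozygous embryos against both other genotypes, the rises of otop1 there and the rises of oc90 against wild type kept their calls under every alternative run. All sign changes were of values near 0 that were not called. In heterozygous against wild-type embryos vcanb was at -0.0054 with DESeq2, -0.0057 with RLE scaling and -0.0095 with upper-quartile scaling, and vcana at -0.0021 with the last. With one library left out, heterozygous against wild type gave -0.032 to 0.053 for vcana, -0.023 to 0.035 for vcanb, -0.14 to 0.19 for has3 and -0.13 to 0.021 for otop1, and against the midpoint -0.051 to 0.030 for otog. The number of the 10 genes called ranged with one library left out from 6 to 8 (8 with all libraries) for homozygous against wild type, from 1 to 3 (2) for heterozygous against wild type, from 5 to 8 (7) between siblings and from 3 to 5 (5) against the midpoint. Over all genes the calls ranged from 7783 to 9263 (9076), 4835 to 6277 (6079), 6776 to 8482 (8101) and 5246 to 7070 (6863) in that order.

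Replicate numbers were not taken as pairs, because the labels give the numbers no meaning. Deviations from the genotype means correlated across genes at -0.024 to 0.085 between same-numbered libraries of different genotypes and at -0.076 to 0.036 between the others. Between homozygous and heterozygous siblings, same-numbered libraries were at 0.0565, 0.0565 and 0.0848. All sibling libraries with different numbers were lower (-0.076 to 0.027). Whether same-numbered sibling pools share a clutch or batch was not tested. With the replicate block 9073, 6133, 8164 and 6890 genes were called in the 4 comparisons. The block ended the calls of has3 in homozygous embryos against wild type (log2 -0.64) and against siblings (-0.62) and no other call among the 10 genes. Depth limits has3 most, at 46 to 112 counts a library.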
